A study of Mus musculus with 6 samples.

Results

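The unfolded protein response and the integrated stress response were followed through 32 genes in the submandibular salivary gland of wild-type C57BL/6 mice, before irradiation and at 6 h and 24 h after 5 Gy. The genes were chosen by symbol as endoplasmic reticulum (ER) stress sensors, their transcription factors, ATF4 targets, ER chaperones, factors of ER-associated degradation and the translocon. All 32 were among the 24394 named entries of the deposited table, and all 32 were among the 11674 tested genes, whose mean level was 1 FPKM or more. FPKM is the number of fragments per kilobase of transcript, scaled to library size, so levels can be compared between genes of different length. Each of the 3 groups (unirradiated control, 6 h and 24 h) had 2 libraries of total RNA. The control was taken at time 0, with no unirradiated group at 6 h or 24 h, so irradiation and elapsed time cannot be told apart. The labels give neither age nor sex and leave unsaid whether libraries of the same group are separate animals. The p-values therefore describe the spread among these libraries, which may be technical. Whole glands were sampled, so fewer cells of a type and less RNA per cell cannot be told apart.

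The gland secretes large amounts of protein, and every secreted protein is folded in the ER. When unfolded protein builds up there, 3 membrane sensors respond: PERK (encoded by Eif2ak3) slows translation by phosphorylating the initiation factor eIF2, IRE1 (Ern1) splices the mRNA of the transcription factor XBP1, and ATF6 is cut to release a transcription factor. XBP1 and ATF6 act on chaperone and degradation genes, many of which carry an ER stress response element. Phosphorylated eIF2 favours translation of ATF4, which acts through C/EBP-ATF elements on genes of amino acid supply and, with CHOP (Ddit3), on genes of cell death. PERK shares this step with other eIF2 kinases, and the common branch is called the integrated stress response. Gene-level FPKM does not separate spliced from unspliced Xbp1 mRNA and holds nothing on phosphorylation or cleavage.

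The elements through which these factors act were looked up in RefSeq promoter windows (GRCm38.p6) of 300 bases, from 250 before to 50 after the start of each gene. A window was held for 27 of the 32 genes, the exceptions being Hyou1, Derl1, Manf, Atf6 and Sec61a1. The ER stress response element (ERSE: CCAAT, any 9 bases, CCACG, on either strand) was found for 8 of the 27 (29.63%), against 0.119% of all 32851 windows. The 8 genes were Hspa5, Hsp90b1, Calr, Canx, Pdia6, Dnajc3, Creld2 and Syvn1, of which Hsp90b1 held a pair of matches. ERSE-II (ATTGG, any base, CCACG) was found for Herpud1 and Dnajb11, against 0.037% of all windows. The C/EBP-ATF element (TGATGNAAN, on either strand) was found for Asns, Chac1, Herpud1 and Trib3, or 14.81% of the 27 against 3.954% of all windows. The lines below are shown because their genes carry the results that follow. Each is read on the gene's own strand, with the matched motif in capitals or, for ERSE, its fixed ends. The coordinates are chr2:34772020-34772048 (plus strand) for Hspa5, chr10:86705518-86705671 (minus) for Hsp90b1, chr8:84847060-84847108 (minus) for Calr and chr12:17266476-17266524 (plus) for Pdia6. Those of the other genes are chr8:94386301-94386402 (plus) for Herpud1, chr2:119351033-119351071 (plus) for Chac1 and chr6:7693219-7693237 (minus) for Asns. In GENCODE M21 the Hspa5 and Asns stretches lie in the first exon of their gene, the Herpud1 stretch lies in an intron of the neighbouring model Gm15890, and the other 4 lie outside gene models.
Hspa5: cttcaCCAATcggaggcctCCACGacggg
Hsp90b1: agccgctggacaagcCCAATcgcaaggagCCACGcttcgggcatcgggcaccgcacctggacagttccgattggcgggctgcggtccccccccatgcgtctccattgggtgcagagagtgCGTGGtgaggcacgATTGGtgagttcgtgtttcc
Calr: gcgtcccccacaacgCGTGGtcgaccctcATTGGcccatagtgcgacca
Pdia6: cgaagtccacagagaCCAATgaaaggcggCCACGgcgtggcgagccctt
Herpud1: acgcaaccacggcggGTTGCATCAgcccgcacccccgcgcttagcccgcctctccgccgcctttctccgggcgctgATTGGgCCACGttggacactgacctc
Chac1: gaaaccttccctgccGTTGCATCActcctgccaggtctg
Asns: ccacaTGATGAAACttccc
The Herpud1 stretch holds a C/EBP-ATF element first and ERSE-II after it. In Calr and the second match of Hsp90b1 the ERSE reads on the opposite strand, as do the C/EBP-ATF elements of Herpud1 and Chac1. A match describes letters in a window and is neither a site in use nor a cause of any value below.

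Depth and tissue were checked first. In the control and 6 h columns every value of a member was a whole number of reads divided by a whole gene length and a library total. The totals came out at 12339893 and 11826335 reads in control and 12128963 and 12577222 reads at 6 h, and the members held 14 to 15533 reads per library. The 24 h columns hold rounded values (at most 6 digits in 99.99% of them, against 0% in the other columns), so their depth is unknown and the route of quantification and the time after irradiation cannot be told apart. Some markers of secretory acini were present in every library, such as Aqp5 at 114 to 188 FPKM, but not all. Smgc was at 0 FPKM in control 1 and 0.499 in 24 h replicate 1, against 27.6 to 541 FPKM in the other libraries. The summed level of the 10 acinar genes was 76380 FPKM in control 1 and 110100 to 116400 FPKM in the others. Dcpp1, Dcpp2 and Dcpp3, counted in that sum, were at 1.33 to 3.72 FPKM in control 1 and 6345 to 17200 FPKM in control 2. Libraries stood apart by genes of other tissues. The summed level of 3 sublingual and parotid genes was lower in replicate 1 than in replicate 2 of every group, with 23.7 against 24610 FPKM among the controls, 1563 against 37100 at 6 h, then 7121 against 68210 at 24 h. One of them, Muc19 of the sublingual gland, was at 0.0178 FPKM in control 1 and 2.25 in 24 h replicate 1, against 139 to 178 in the other 4 libraries. Krt10, of keratinised epithelium, was at 129 FPKM in 24 h replicate 2 against 10.7 in replicate 1. The part of these differences in the results was not tested. Fits with libraries left out are given for the calls made with all libraries, and calls that appeared only with a library left out are not all listed. Fits with a block for replicate number are given where they change a call. The scale moved as well. Median-of-ratios factors, by which the deposited values were divided, were 0.946, 0.950, 0.914 and 0.947 in the control and 6 h libraries and 1.16 and 1.14 at 24 h. Over all genes, the median log2 fold change at 24 h against control was 0.20 as deposited and -0.03 after scaling, so 24 h values are given on both scales.

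In the unirradiated gland the folding machinery was among the most abundant transcripts. P4hb, a protein disulfide isomerase, stood at 467 ± 40.3 FPKM (SD, n = 2), above 99.5% of tested genes. Calr, a lectin chaperone of glycoproteins, followed at 312 ± 32.2 FPKM, and Hsp90b1, the ER member of the HSP90 family, at 272 ± 19.1. Next came Hspa5, the HSP70 chaperone BiP, at 209.8 ± 25.8 FPKM, Pdia3 at 208 ± 0.404 and the translocon subunit Sec61b at 207 ± 33.4, which did not differ beyond their spread. Among transcription factors Xbp1 was at 136 ± 19.6 FPKM, Atf4 at 61.3 ± 4.93 and Ddit3 at 10.3 ± 1.03. Among the sensors, Eif2ak3 was at 25.04 ± 1.32, Atf6 at 15.2 ± 2.91 and Ern1 at 8.35 ± 0.323 FPKM. Chac1 at 1.69 ± 1.33 and Trib3 at 1.14 ± 0.622 FPKM were the lowest, above 12.9% and 6% of tested genes.

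**Figure D1:**
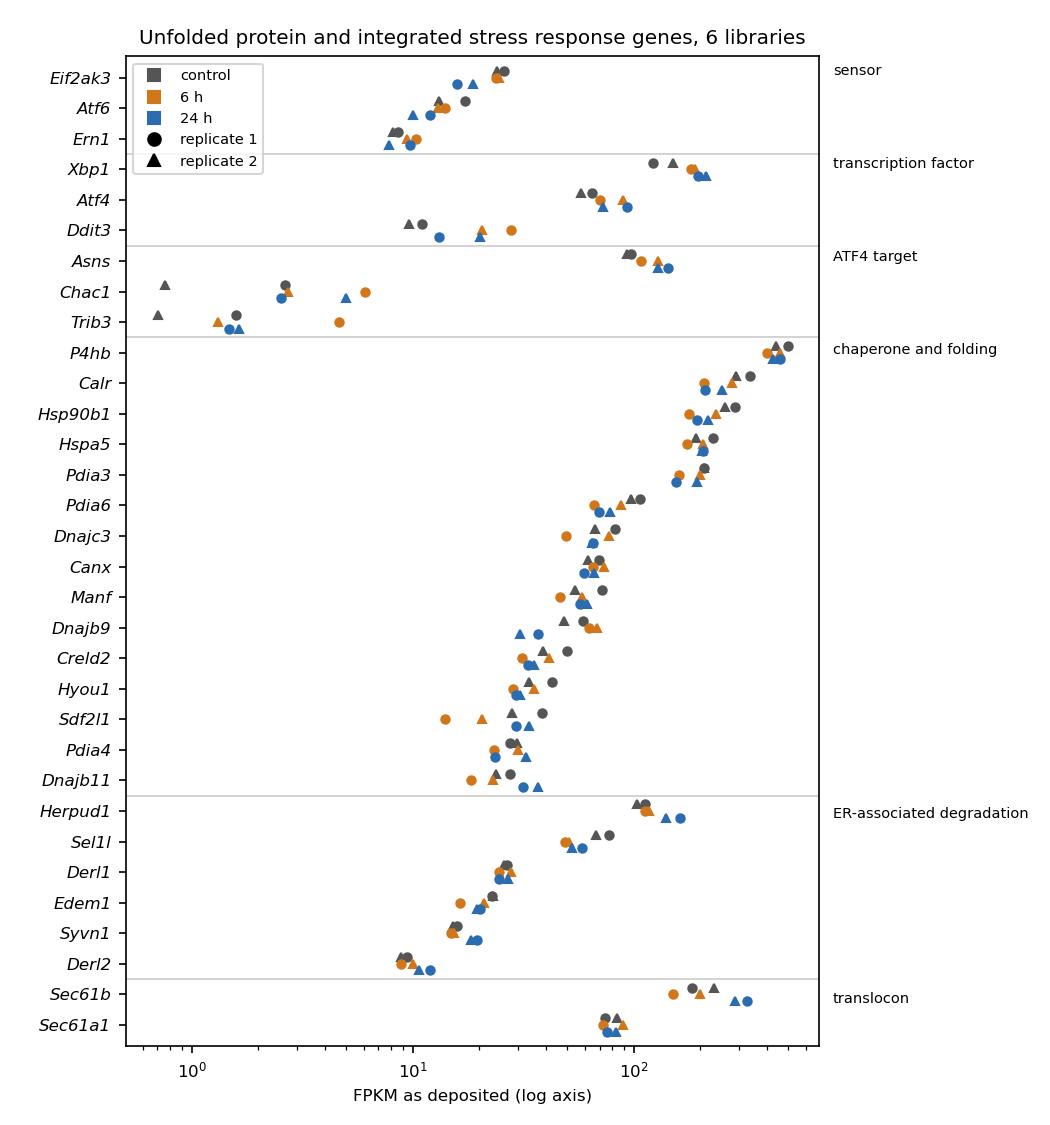
Deposited FPKM (horizontal log axis) of the 32 genes in each library, one row per gene and grouped by role; colour marks control, 6 h and 24 h and symbol marks the replicate. Folding factors fill the upper end of the scale, from P4hb downwards, while Chac1 and Trib3 sit alone at the lower end with the widest gaps between replicates.

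At 6 h the transcription factors and ATF4 targets stood higher than in control and most chaperones lower, but no member passed the test. By limma on deposited values 0 of 32 members were called, against 1.01% of the 11674 tested genes. After median-of-ratios scaling it was 0 of 32 against 1.07%, and by limma-voom on the recovered reads 0 of 32 against 1.01% of 11614 genes. At an unadjusted p under 0.05 there were 7 members as deposited (3 higher, 4 lower), 8 after scaling and 8 by voom, while 1724 of all tested genes were under it as deposited. The control and 6 h values of 8 members did not overlap and were higher at 6 h (19.4% of tested genes did so), and those of 8 members did not overlap and were lower (24.9%). The median log2 fold change of the members was -0.11, beside -0.02 over all genes.

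Ddit3, which encodes the death-associated factor CHOP, had the smallest p of the 32 genes at 6 h. Its level was 11.1 and 9.61 FPKM in the controls and 27.9 and 20.6 FPKM at 6 h. These values rest on 119 and 99 reads in control and 295 and 226 reads at 6 h. Both irradiated libraries lay above both controls, and the ratio of means was 2.35. The log2 fold change on the log2(FPKM + 1) scale was 1.14 ± 0.23 (SE), with an adjusted p from limma of 0.10 as deposited, 0.105 after scaling and 0.0692 by voom. Atf4 was at 64.8 and 57.8 FPKM in the controls and 70.1 and 89.7 at 6 h, a log2 fold change of 0.37 ± 0.17 with an adjusted p of 0.386. Xbp1 was at 122 and 150 FPKM in the controls and 181 and 189.7 at 6 h. All 3 factors had groups that did not overlap, and none passed the threshold; for Xbp1 the log2 fold change was 0.45 ± 0.13 and the adjusted p 0.20. Plasma cells, which carry much Xbp1, had a summed marker level of 174 and 385 FPKM in the controls and 238 and 348 at 6 h, and their part in the Xbp1 values was not tested.

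The ATF4 targets followed the same order of groups with less agreement between replicates. Chac1, a glutathione-degrading enzyme, was represented by 51 and 14 reads in control and 116 and 54 at 6 h. The lower of the irradiated libraries barely exceeded the higher control, and per length and depth the level was 2.63 and 0.754 FPKM against 6.09 and 2.73. Trib3, a pseudokinase that binds ATF4, had 40 and 17 reads in control and 115 and 34 at 6 h, so its groups overlapped. Asns, asparagine synthetase, is the abundant member of this set, with 97.2 and 93.7 FPKM in the controls and 108 and 129 at 6 h. Its log2 fold change was 0.30 ± 0.12 with an adjusted p of 0.321, beside 1.03 ± 0.46 (0.378) for Chac1 and 0.79 ± 0.42 (0.455) for Trib3.

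**Figure D2:**
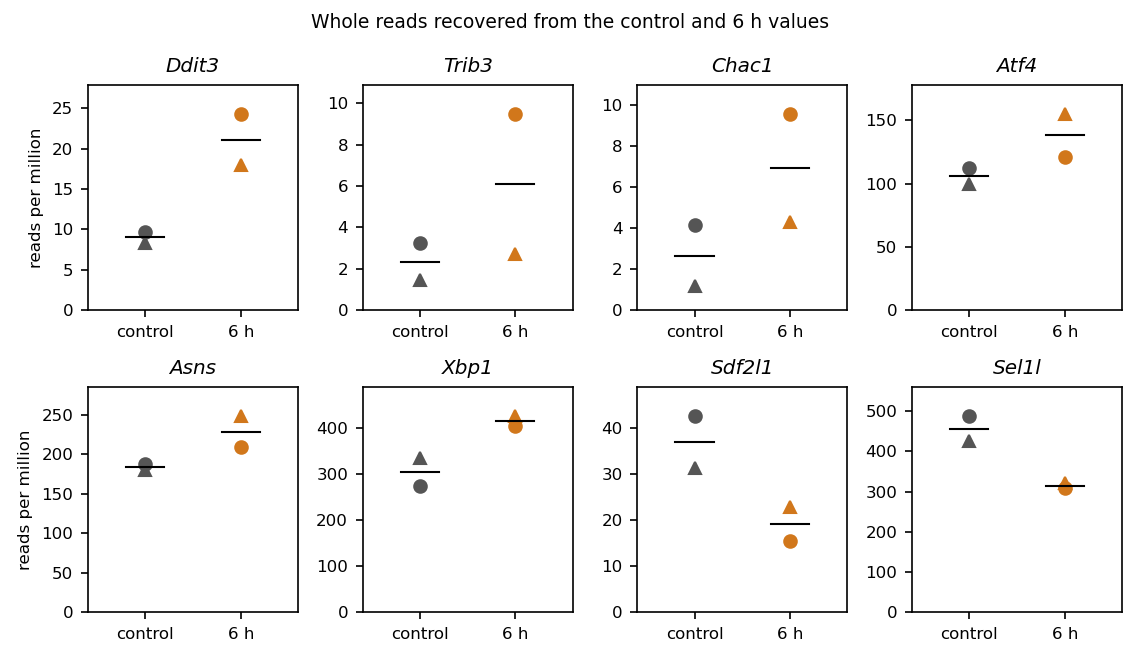
Recovered reads, scaled to the library total (vertical axis, from 0), of 8 genes in control and at 6 h; circles are replicate 1, triangles replicate 2 and bars the mean of 2 libraries. Ddit3, Xbp1, Atf4 and Asns are higher in both 6 h libraries, Sdf2l1 and Sel1l are lower in both, and the 6 h values of Trib3 and Chac1 differ widely between replicates.

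Of the 15 chaperones and folding factors, 13 had a negative log2 fold change at 6 h, and none was called. Their median was -0.25, beside -0.02 over all tested genes. Sdf2l1, an ER cofactor of J-domain chaperones, had the largest difference, with 38.5 and 28.2 FPKM in the controls and 14.1 and 20.7 at 6 h. It was represented by 526 and 370 reads in control and 189 and 288 at 6 h. Its groups did not overlap, and the log2 fold change was -0.91 ± 0.22 with an adjusted p of 0.154. Pdia6, a disulfide isomerase, was at 107 and 97.2 FPKM in the controls and 66.1 and 87.9 at 6 h, and Hsp90b1 at 286 and 259 FPKM against 178 and 235. Calr, Pdia3 and Dnajb11, a J-domain partner of BiP, also had lower values in both 6 h libraries than in both controls. Hspa5 itself overlapped between groups, with 228 and 192 FPKM in the controls and 174 and 206 at 6 h. The only positive values in this set were those of Dnajb9, another J-domain partner of BiP, at 0.29 ± 0.14, and of the lectin chaperone Canx at 0.08 ± 0.11. The 8 genes with ERSE had a median of -0.27 and a range from -0.41 to 0.08, and 0 of them were called.

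The folding factors differed between replicates in a shared direction. At 6 h all 15 were lower in replicate 1 than in replicate 2, by a median of 0.34 on the log2 scale, while over all tested genes the median difference was 0.04. In control 14 of 15 were higher in replicate 1, by a median of 0.21 against 0.01 over all genes. Acinar marker sums were 76380 and 116400 FPKM in control replicates 1 and 2 and 115500 and 112900 FPKM at 6 h. The control sums include Dcpp1, Dcpp2 and Dcpp3, at 1.33 to 3.72 FPKM in control 1 and 6345 to 17200 FPKM in control 2. The sums therefore do not show the acinar content of these libraries. The part of cell composition in these gaps was not tested.

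Among the degradation factors, Sel1l, the scaffold of the HRD1 ubiquitin ligase, stood lower at 6 h. It was at 77.4 and 67.5 FPKM in the controls and 49.1 and 50.9 at 6 h, with 6017 and 5028 reads against 3751 and 4031. The log2 fold change was -0.52 ± 0.11 and the adjusted p 0.122. Edem1, which directs misfolded glycoproteins to degradation, was at 22.9 and 23.2 FPKM in the controls and 16.3 and 21.0 at 6 h. Herpud1, Syvn1 (the HRD1 ligase), Derl1 and Derl2 (membrane proteins of the retrotranslocation channel) had log2 fold changes between -0.03 and 0.10. The translocon subunits were at -0.25 ± 0.18 for Sec61b and 0.03 ± 0.14 for Sec61a1. The sensors were at 0.21 ± 0.13 for Ern1, -0.05 ± 0.11 for Eif2ak3 and -0.15 ± 0.15 for Atf6, with adjusted p-values of 0.504 to 0.894.

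At 24 h the clearest differences were lower levels of Dnajb9 and Eif2ak3, which passed the test on both scales and against both earlier groups. As deposited, 3 members rose against control (Xbp1, Herpud1 and Asns), or 9.38% of 32, where 21% of tested genes did. Another 2 fell (Dnajb9 and Eif2ak3), or 6.25%, where 4.3% of tested genes did. After scaling 0 members rose, where 9.35% of tested genes did, and 9 fell, or 28.1%, where 8.31% did. The members' median log2 fold change was -0.05 as deposited, beside 0.20 over all genes, and -0.32 after scaling, beside -0.03. After scaling the groups did not overlap for 4 members that were higher (29% of tested genes) and 21 that were lower (33.5%). The comparisons of 6 h and 24 h with control share the control libraries.

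**Figure D3:**
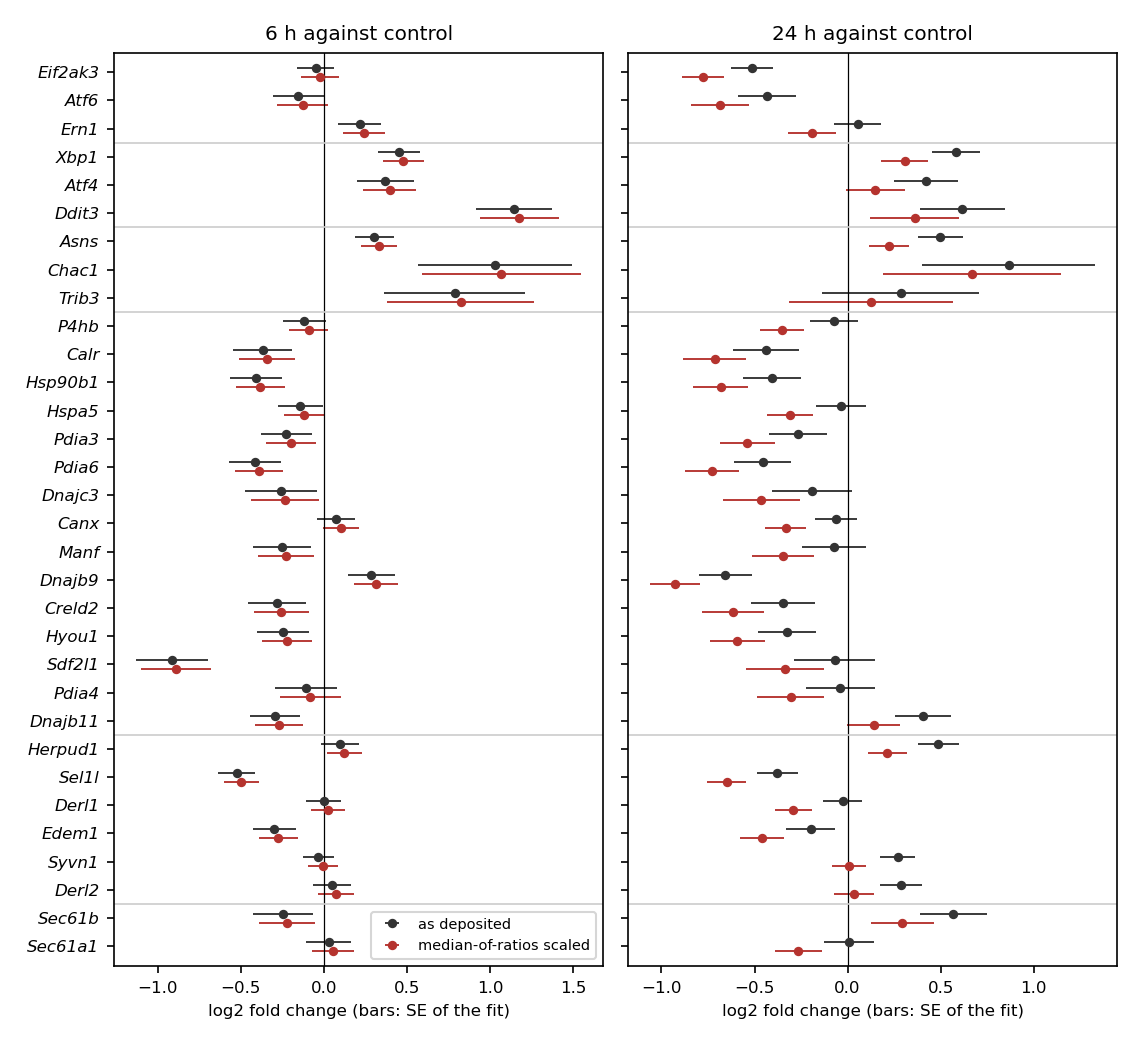
Log2 fold change on the log2(FPKM + 1) scale (horizontal axis) of each gene at 6 h and at 24 h against control, as deposited (black) and after median-of-ratios scaling (red); bars are the SE of the fit and grey lines separate the roles. Scaling hardly moves the 6 h values and shifts every 24 h value to the left, so that only factors, ATF4 targets, Dnajb11 and some degradation and translocon genes stay at or above 0.

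Dnajb9 was at 59.2 and 48.6 FPKM in the controls, 63.0 and 68.3 at 6 h, then 37.0 and 30.6 at 24 h. Both 24 h libraries lay below all 4 others. Scaled, the values were 62.6 and 51.2, then 69.0 and 72.1, and then 32 and 26.8 FPKM. Against control its log2 fold change was -0.66 ± 0.14 (adjusted p 0.0206, limma) as deposited and -0.93 ± 0.14 (0.00703) scaled. Against 6 h it was -0.94 ± 0.14 (0.00553) and -1.24 ± 0.14 (0.00225). Dnajb9 encodes ERdj4, a J-domain protein that binds IRE1 and is known as an XBP1 target. As deposited, the call against control was lost without control 1 (adjusted p 0.0838), 24 h replicate 1 (0.0549) or 24 h replicate 2 (0.114), and was at -0.39 (0.195) without both control 1 and 24 h replicate 2. The deposited call against 6 h held without any single library and was at -0.81 (0.0564) without that pair. After scaling, the call against 6 h held in 7 of 7 sets with libraries left out, and that against control in 5 of 7, those without 24 h replicate 2 being the exceptions.

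The PERK gene Eif2ak3 behaved in the same manner from a flat 6 h level. It was at 26.0 and 24.1 FPKM in the controls, 23.8 and 24.5 at 6 h, then 15.8 and 18.7 at 24 h. Its log2 fold change against control was -0.52 ± 0.11 (adjusted p 0.0209) as deposited and -0.78 ± 0.11 (0.00687) scaled. Against 6 h it was -0.47 ± 0.11 (0.0269) and -0.75 ± 0.11 (0.00748). As deposited, the call against control was lost without control 1 (0.0857), control 2 (0.0502) or 24 h replicate 1 (0.103), and that against 6 h without 6 h replicate 1 (0.107), 6 h replicate 2 (0.105) or 24 h replicate 1 (0.124). Without control 1 and 24 h replicate 2 the deposited values were -0.58 (0.120) and -0.58 (0.0768). After scaling each of the calls held in 6 of 7 sets with libraries left out. Atf6 was at 17.3 and 13.2 FPKM in the controls, 14.0 and 13.0 at 6 h, then 11.9 and 10.04 at 24 h. Against control it fell after scaling by 0.69 ± 0.16 (adjusted p 0.0309) and was at -0.43 ± 0.15 (0.0877) as deposited. The deposited value was called with a replicate block (0.0425) and without control 2 (0.0463), and the scaled call held in 1 of 7 sets. Ern1 overlapped between control and 24 h as deposited, at 8.58 and 8.12 FPKM against 9.68 and 7.84 FPKM. Scaled, its 24 h values of 8.37 and 6.87 FPKM lay below the 9.07 and 8.55 FPKM of the controls, and the log2 fold change was -0.19 ± 0.13 (0.341). With scaling and the block together, Atf6 (0.0222) and Ern1 (0.0416) were called lower than at 6 h, where scaling alone gave 0.0520 and 0.0618.

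The factors and ATF4 targets remained at positive values against control, and the calls depended on the scale. Xbp1 reached 194 and 211 FPKM at 24 h, above both controls, and its log2 fold change was 0.58 ± 0.13 (adjusted p 0.0222) as deposited and 0.31 ± 0.12 (0.144) scaled. Asns reached 142 and 128 FPKM, with 0.50 ± 0.12 (0.0290) as deposited and 0.22 ± 0.11 (0.202) scaled. The deposited call of Xbp1 was lost without control 1 (0.0819), 24 h replicate 1 (0.0848) or 24 h replicate 2 (0.118), and that of Asns without any of the control or 24 h libraries (0.0811 to 0.147). Ddit3 was at 13.2 and 20.2 FPKM, between the control and 6 h levels, and its 0.62 ± 0.23 against control had an adjusted p of 0.0952. Its difference from 6 h was -0.53 ± 0.23 (0.132) as deposited and -0.81 ± 0.24 (0.0597) scaled, so neither the higher level nor its decline passed. Atf4 was at 93.1 and 72.7 FPKM, Chac1 at 2.54 and 4.97 FPKM and Trib3 at 1.47 and 1.64 FPKM, with adjusted p-values of 0.122, 0.220 and 0.651 against control as deposited and 0.556, 0.375 and 0.867 scaled.

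Of the 15 chaperones and folding factors, 14 had a negative log2 fold change at 24 h on either scale. The median was -0.19 as deposited and -0.46 scaled, beside 0.20 and -0.03 over all tested genes. After scaling the 24 h libraries of 14 lay below both controls, as did those of 33.5% of tested genes. Besides Dnajb9, 4 of them fell after scaling: Pdia6 by 0.73 ± 0.15 (adjusted p 0.0207), Hsp90b1 by 0.68 ± 0.15 (0.0271), Calr by 0.71 ± 0.17 (0.0357) and Hyou1, the ER HSP110 chaperone, by 0.59 ± 0.15 (0.0428). As deposited these 4 had adjusted p-values of 0.0780 to 0.178, and their scaled calls held in 1 or 2 of 7 sets with libraries left out. Pdia6, Hsp90b1 and Calr kept theirs only in sets without a 6 h library, which is outside this comparison, and Hyou1 only without control 2. The scaled call of Hyou1 was lost with a replicate block (0.0593). Scaled Hsp90b1 was at 302 and 273 FPKM in the controls, 195 and 248 at 6 h, then 167 and 191 at 24 h. Scaled Calr was at 354 and 304 FPKM in the controls, 227 and 295 at 6 h, then 182 and 219 at 24 h. The 24 h values of both genes lay below all 4 earlier libraries. Hspa5, next to these in level, was at 205 and 203 FPKM at 24 h as deposited, within the range of the controls, with -0.04 ± 0.14 (0.874), and at 178 and 178 FPKM scaled, with -0.31 ± 0.13 (0.143). Its ratio of means to control was thus 0.972 as deposited and 0.803 scaled. Dnajb11 was the exception in sign, at 31.6 and 37.0 FPKM against 27.4 and 23.8 in control, with 0.41 ± 0.15 (0.0970) as deposited and 0.14 ± 0.14 (0.542) scaled. The other 8 (Pdia3, Pdia4, P4hb, Canx, Dnajc3, Sdf2l1, Creld2 and Manf) ranged from -0.35 to -0.04 as deposited and from -0.62 to -0.31 scaled, with none called on either scale, though Pdia3 was called lower with scaling and the block together (0.0365). The 8 genes with ERSE had a median of -0.27 as deposited, with 0 called, and of -0.54 scaled, with 3 called lower, beside 8.31% of tested genes.

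**Figure D4:**
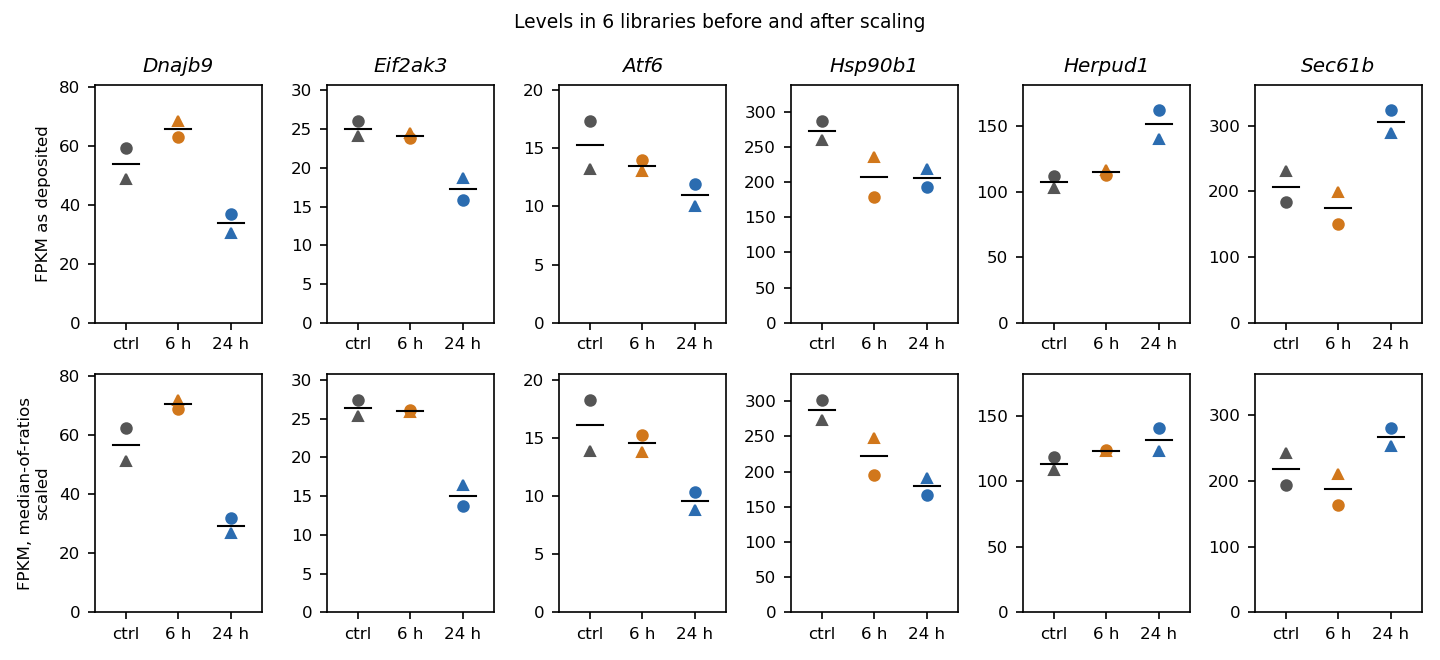
FPKM of 6 genes in the 6 libraries, as deposited (upper row) and after median-of-ratios scaling (lower row), on axes from 0; circles are replicate 1, triangles replicate 2 and bars the mean of 2 libraries. Dnajb9 and Eif2ak3 are lower at 24 h than in all earlier libraries on both scales, while the gap of Herpud1 between 24 h and control narrows from 107.5 against 151 FPKM to 113 against 132 FPKM.

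The degradation genes divided. Herpud1, a membrane scaffold of the HRD1 complex that holds both an ERSE-II and a C/EBP-ATF element in the stretch printed above, was at 112 and 103 FPKM in the controls, 113 and 117 at 6 h, then 162 and 140.4 at 24 h. It rose against control as deposited, by 0.49 ± 0.11 (adjusted p 0.0250), and was at 0.21 ± 0.11 (0.211) scaled. The deposited call was lost without control 1 (0.0582), control 2 (0.0909) or 24 h replicate 1 (0.113). Sel1l was at 58.5 and 52.5 FPKM at 24 h, still below both controls, and fell after scaling by 0.65 ± 0.11 (0.0106) against -0.38 ± 0.11 (0.0527) as deposited. Edem1 was at -0.20 ± 0.13 (0.310) as deposited and fell after scaling by 0.46 ± 0.12 (0.0466), a call lost with a replicate block (0.0512). The scaled calls held in 4 of 7 sets with libraries left out for Sel1l and in 2 of 7 for Edem1. Those of Edem1 were the sets without a 6 h library, which is outside this comparison, and Sel1l lost its call with a 24 h library left out. Syvn1, which encodes the ligase that SEL1L holds, was at 19.6 and 18.3 FPKM against 15.9 and 15.2 in control as deposited, with 0.27 ± 0.09 (0.0833), and at 0.01 ± 0.09 (0.960) scaled. Derl1 was at -0.03 ± 0.11 and Derl2 at 0.29 ± 0.11 as deposited, with adjusted p-values of 0.880 and 0.117, and at -0.29 ± 0.10 (0.0985) and 0.035 ± 0.107 (0.846) scaled. With control 1 and 24 h replicate 2 left out, 0 members were called against control on either scale, and with single libraries left out the scaled count of members that fell was 1 to 7. The highest of these counts came from leaving out a 6 h library, which is outside this comparison. The acinar marker sum at 24 h was 115600 and 110100 FPKM, beside 115500 and 112900 FPKM at 6 h. These sums hold shifts in both directions, so they do not show that acinar content was stable. Pip was at 66760 and 57620 FPKM at 24 h against 40020 and 31950 at 6 h, and Dcpp3 at 83.5 and 7858 against 9936 and 18250. The macrophage sum was 830 and 983 FPKM against 320 and 328 in control. The part of these cell types in these results was not tested.

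Sec61b, a subunit of the translocon that threads new proteins into the ER, needs its gene model beside its values. It was at 183 and 230.4 FPKM in the controls, 149.96 and 199.6 at 6 h, then 324 and 288 at 24 h. The 24 h libraries were higher than the 4 others, with 0.57 ± 0.18 against control (adjusted p 0.0654) and 0.82 ± 0.18 against 6 h (0.0207) as deposited. After scaling these were 0.29 ± 0.17 (0.272) and 0.51 ± 0.17 (0.0798). The length recovered for Sec61b from the control and 6 h columns was 276 bases, the shortest of the members. It may be too small by a divisor that reads and length share. The exons of the gene in GENCODE M21 cover 1271 bases. At 24 h against control the 174 tested genes of up to 400 bases had a median log2 fold change of -1.31 as deposited (quartiles -2.36 and 0.82). This class was mixed, since its 106 genes under 200 bases had a median of -2.11 and its 39 genes of 200 to 350 bases, a window chosen around Sec61b, one of 0.95 (quartiles 0.36 and 1.36). At 6 h these medians were -0.03, -0.01 and -0.08. The value of Sec61b lay between the quartiles of the whole class and of the narrower window. Had its length been a multiple of 276 bases, these classes would not apply to it. The 566 genes of 401 to 800 bases had a median of 0.59 at 24 h against control. Their quartiles of 0.157 and 1.07 also enclosed the value of Sec61b. Lengths of other genes in these classes may be too small in the same way. The channel subunit Sec61a1, of 3039 bases, was at 0.01 ± 0.14 against control and at -0.02 ± 0.14 against 6 h as deposited, and at -0.265 ± 0.126 (0.20) and -0.32 ± 0.13 (0.126) scaled.

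**Figure D5:**
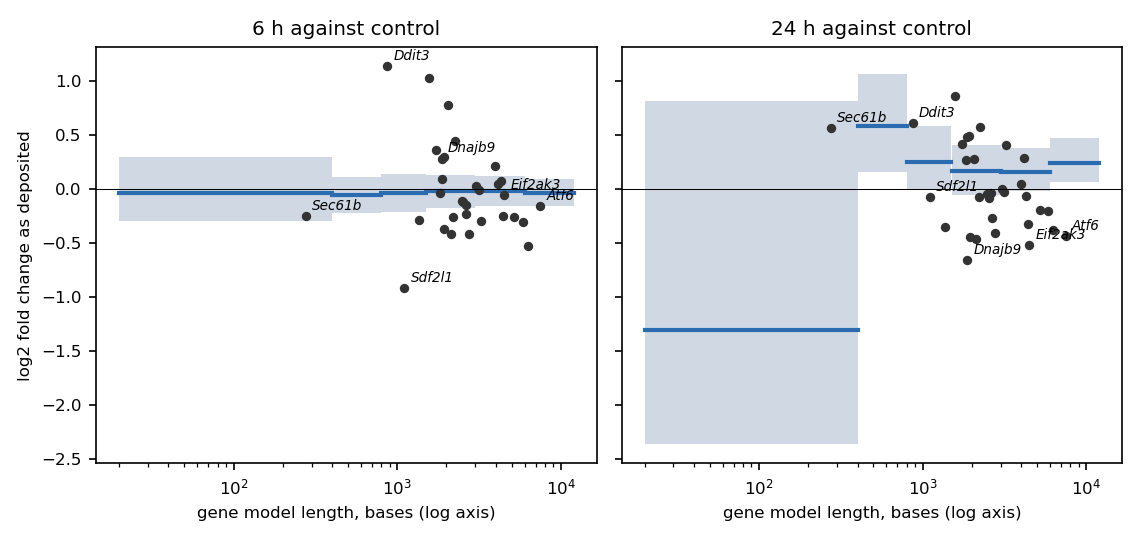
Log2 fold change as deposited (vertical axis) of the members (points) against recovered gene model length (horizontal log axis) at 6 h and 24 h against control. Blue lines and shaded bands give the median and quartiles of all tested genes in each of 6 length classes. At 24 h genes of up to 400 bases had a median of -1.31, those of 401 to 800 bases 0.59 and those of 1501 to 3000 bases 0.18, while at 6 h the 6 medians lay near 0.

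Between 6 h and 24 h, 4 members rose as deposited, or 12.5% of 32, where 23.4% of tested genes did: Sdf2l1, Sec61b, Dnajb11 and Herpud1. Dnajb9 and Eif2ak3 fell, or 6.25%, where 4.31% of tested genes did. After scaling 0 rose (10.7% of tested genes) and 3 fell (9.47%), namely Dnajb9, Eif2ak3 and Canx. Sdf2l1 is the member with the largest return, from 14.1 and 20.7 FPKM at 6 h to 29.4 and 33.4 FPKM at 24 h, near its 38.5 and 28.2 FPKM in control. Its log2 fold change was 0.84 ± 0.22 (adjusted p 0.0332) as deposited and 0.55 ± 0.21 (0.118) scaled. Dnajb11 went from 18.3 and 23.1 FPKM to 31.6 and 37.0 FPKM, with 0.70 ± 0.15 (0.0185) as deposited and 0.41 ± 0.14 (0.0965) scaled. The deposited calls of Sdf2l1, Dnajb11 and Sec61b were lost without 6 h replicate 1 (0.154, 0.0993 and 0.108) or either 24 h library, and that of Herpud1 without any single library (0.0543 to 0.175). Canx fell after scaling by 0.44 ± 0.11 (0.0394) and was at -0.14 ± 0.11 (0.407) as deposited. Its scaled call held in 2 of 7 sets with libraries left out and was lost with a replicate block (0.0530). Those sets lacked only a control library, which is outside this comparison. The comparison of 24 h with 6 h sets rounded values against values on read steps, as does that with control.

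Other genes of these pathways were counted in lists that leave out the members, and no test set these lists against the members or other genes. Of 23 tested ATF4 and CHOP targets, 3 rose and 0 fell at 6 h, where 1.01% of tested genes were called, with a list median of 0.42 beside -0.02 over all genes, and 13 had an unadjusted p under 0.05. The called genes were Gdf15, a stress cytokine, at 0.449 and 0.546 FPKM in the controls and 60.7 and 81.2 at 6 h, Sesn2, a leucine sensor, at 1.80 and 1.24 against 11.1 and 10.9 FPKM, and Ddit4, an inhibitor of mTORC1, at 9.96 and 11.6 against 22.1 and 21.4 FPKM. Their log2 fold changes were 5.57 ± 0.15, 2.26 ± 0.14 and 0.95 ± 0.13, with adjusted p-values from limma of 0.000104, 0.00296 and 0.0381. All 3 are also known as targets of p53, and the part of ATF4 or of p53 in their values was not tested. The members' ATF4 targets Asns, Chac1 and Trib3 had positive log2 fold changes at 6 h and were not called. Gdf15 was under 1 FPKM in the controls and reached the mean of 1 FPKM needed for testing only through its irradiated libraries. At 24 h against control, where 21% of tested genes rose as deposited and 9.35% after scaling, 11 of the 23 rose as deposited and 6 after scaling, while 0 and 1 fell. Psat1, of serine synthesis, was at 2.64 and 2.99 FPKM in the controls, 5.43 and 9.61 at 6 h, then 20.4 and 14.3 at 24 h. Its log2 fold change at 24 h was 2.25 ± 0.27 (0.00241) as deposited and 2.01 (0.00419) scaled. Between 6 h and 24 h Gdf15 fell by 1.65 ± 0.15 (0.000856) as deposited and was at -1.95 (0.000454) scaled. In that comparison 6 of the 23 rose and 3 fell as deposited, and the balance turned to 3 and 6 after scaling.

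The other 6 lists, with 121 tested genes, held 0 calls at 6 h by limma on either scale and 0 by limma-voom, and 12 of their genes had an unadjusted p under 0.05 as deposited. The counts at 24 h against control stand beside 21% higher and 4.3% lower over all tested genes as deposited, and 9.35% and 8.31% after scaling. Of 21 ER folding factors, 4 rose and 2 fell as deposited, against 1 and 4 after scaling. Pdia5, a disulfide isomerase, was at 8.29 and 11.1 FPKM in the controls and 3.92 and 6.21 at 24 h, and fell on both scales, by 0.83 ± 0.22 (0.0359) as deposited and by 1.06 (0.0213) scaled. Of 23 ER-associated degradation genes, 2 rose and 0 fell as deposited, against 1 and 6 after scaling. Of 23 translocon, signal peptidase and oligosaccharyltransferase genes, 5 rose and 1 fell, against 1 and 4 after scaling. Of 17 genes of transport from the ER to the Golgi, 0 rose and 1 fell, against 0 and 4 after scaling. Arfgap3, a coat-recycling factor, was the one called on both scales, at 55.7 and 49.4 FPKM in the controls and 39.8 and 38.1 at 24 h. Of 24 other sensors and regulators, 7 rose and 0 fell, against 2 and 0 after scaling, and of 13 cytosolic tRNA synthetases 3 rose and 0 fell, against 0 and 0. The largest values came from Dad1, of the oligosaccharyltransferase, with 22.1 and 20.7 FPKM in the controls and 135 and 137 at 24 h, Eif2b3, of the eIF2 exchange factor, with 2.40 and 2.14 against 9.84 and 9.001 FPKM, and Ube2j2, with 0.582 and 0.374 against 2.64 and 3.05 FPKM. At 6 h Dad1 was at 17.6 and 19.2 FPKM, Eif2b3 at 2.44 and 2.29 and Ube2j2 at 0.410 and 0.329. For these genes, as for all 24 h differences here, the time after irradiation and the change of value format cannot be told apart. Ube2j2 was under 1 FPKM in the control and 6 h libraries and reached the mean of 1 FPKM needed for testing only through its 24 h values. It is counted among the degradation genes that rose on both scales. Of the listed degradation genes, Selenos and Hm13 were not analysed here.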

How the data were processed

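Total RNA of submandibular glands was sequenced in 6 libraries, 2 in each of 3 groups (control, 6 h and 24 h after 5 Gy). The authors deposited 1 table of gene-level FPKM, and the submitters' processing notes name TopHat2 2.1.0, Cufflinks 2.2.1 and mm10 without giving their roles. Strandedness and the counting rule are not stated in the labels. Left out were 27 of the 24421 entries, with date numbers in place of a symbol.

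The 32 members and the pathway and marker lists were chosen with earlier results of these data known. The fit used log2(FPKM + 1), so fold changes of low genes are understated, and genes averaging 1 FPKM or more across all 6 libraries (11674) were fitted with limma 3.58.1 in R 4.3.3. The fit had a mean per group, empirical Bayes moderation with a trend and 3 residual degrees of freedom. Two-sided p-values were adjusted by Benjamini-Hochberg over all tested genes of a comparison, at a threshold of 0.05. An adjusted p in parentheses after a log2 fold change comes from this fit. The sign ± precedes an SD (2 libraries) after an FPKM level and an SE of the model after a log2 fold change. Scaled values were divided by the median of the ratios to the geometric mean over all named entries above 0 in every library of the fit.

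Whole reads were recovered for the control and 6 h columns in 11614 of the 11674 genes (99.49%, relative tolerance 1e-06). Where reads and gene length share a divisor, the recovered pair may be too small by that factor. These reads were tested with limma-voom, an alternative chosen after seeing the data. Reads without molecular identifiers are not independent molecules. Gene positions came from GENCODE M21 and promoter sequences from RefSeq (GRCm38.p6). Procedures were tested on simulated data. The labels number the replicates alike in each group without saying what a shared number means. Deviations of same-numbered libraries from their group means correlated at 0.466 between control and 6 h, 0.311 between control and 24 h and 0.167 between 6 h and 24 h, so fits with a replicate block are given where they change a call.

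All members are named. Of each pathway list, the rule names up to 3 called genes with the largest absolute log2 fold change per comparison or, with none called, the gene with the smallest p, and only some of these are reported. The alternatives were scaling, quantile normalization, the pseudocount, the filter, the samples in the fit, a block for replicate number and libraries left out.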

Additional observations from a re-analysis of the deposited data

Results flagged for a closer look

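For 6 members the level at 24 h differed from that at 6 h by the test of 24 h against 6 h on the deposited values (limma, adjusted p under 0.05). The log2 difference was -0.94 for Dnajb9 and -0.47 for Eif2ak3, which were lower at the later time, and these kept their call after scaling. It was 0.84 for Sdf2l1, 0.82 for Sec61b, 0.70 for Dnajb11 and 0.39 for Herpud1, which were higher at the later time and were not called after scaling. The change of value format between the 6 h and 24 h columns coincides with this comparison, and its part in these differences cannot be told apart from time.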

How the results depend on the processing

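Over 1370 log2 fold changes of members under the alternatives, 1278 kept a call of the same sign or stayed without a call. Another 59 lost a call, 27 gained a call and 6 changed sign with a call in either setting. Values without a call also changed sign and are among the 1278. At 24 h against 6 h, 17 members had a positive value as deposited and 5 after scaling. The 6 changes of sign with a call came from quantile normalization: Xbp1 (-0.024) and Herpud1 (-0.033) at 24 h against control, and Hsp90b1 (-0.66), Xbp1 (-0.53), Herpud1 (-0.19) and P4hb (-0.75) at 24 h against 6 h. At 6 h, 0 members were called in each setting, while the count of genes called, 118, went to 68 with no expression filter, 31 with those groups fitted alone, 7 to 59 with single libraries left out and 0 without control 1 and 24 h replicate 2. At 24 h against control, the 2953 genes became 1929 under quantile normalization, 1266 to 2345 with single libraries left out and 316 without that pair. The 5 members became 9 under median-of-ratios scaling, 12 under quantile normalization, 0 to 6 with single libraries left out and 0 without the pair. At 24 h against 6 h, the 3237 genes became 1415 to 3259 with single libraries left out and 806 without the pair. The 6 members became 3 under scaling, 1 to 5 with single libraries left out and 0 without the pair. Scaling combined with single libraries left out, chosen after seeing the data, gave 1 to 7 members against control and 1 to 4 against 6 h, and without the pair 0 and 2. In the comparisons with 24 h, the highest counts with single libraries left out came from leaving out a library of the group not compared. Where a library of a compared group was left out, the lone library was assumed to vary like the other groups. Fewer libraries leave fewer degrees of freedom, and the cause of the other shifts was not tested. With a replicate block 104, 3001 and 3351 genes and 0, 6 and 6 members were called, with Atf6 added at 24 h against control (adjusted p 0.0425). The block changed no other deposited call of a member. Scaling with a replicate block, chosen after seeing the data, gave 0, 8 and 4 members, of which 7 and 2 were also called at 24 h without the block. Depth limits Trib3 and Chac1 most, with as few as 17 and 14 reads.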
